A study of Mus musculus with 6 samples.

Results

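Naloxone given to wild-type mice was compared with saline in whole brain on the 3 arrays whose labels name C57BL/6J mice, out of 6 arrays in the series. The mice were males aged 9 weeks. On each array, brain RNA taken 10 min after naloxone carried the dye Cy5 and brain RNA taken 10 min after saline carried Cy3, both labelled directly during reverse transcription. The probes were BMAP complementary DNA clones, made from mouse brain. The other 3 arrays compared naloxone with saline in the same way in NY1DD mice, a transgenic line that models sickle cell disease, and they serve here only as a comparison. No array had the dyes exchanged, so a difference between the dyes cannot be told apart from naloxone in the wild-type mean. The value of a probe is a ratio of the channels, most likely naloxone over saline because the design text gives Cy5 to naloxone. The numerator itself is not stated, and if saline was the numerator, each sign given here must be turned. How many animals stand behind an array is not stated either, so each p-value measures the spread between arrays, which may be technical. Wild-type replicates 1 and 2 share a number in their titles whose meaning is not given.

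Naloxone is an antagonist of the opioid receptors and displaces both opioid drugs and the brain's own opioid peptides. These receptors couple to inhibitory G proteins, which lower cyclic AMP, open potassium channels and close calcium channels at the synapse. The enkephalins come from Penk, the dynorphins from Pdyn and beta-endorphin from Pomc. Immediate early genes such as Fos, Egr1 and Arc are the standard readout of fast changes in neuronal activity, and several of them, Per1 included, are induced through the cyclic AMP response element, a short promoter motif bound by CREB. In whole brain, fewer cells of a type and less RNA per cell cannot be told apart.

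The 3 wild-type arrays held 11413, 11317 and 11333 usable probes, in the order of replicates 1, 2 and 3, as do all sets of 3 values below. After averaging probes of the same gene there were 9685 features, of which 6146 were named genes and 3539 were probes without a single gene symbol. The arrays differed in spread, with an SD over probes of 0.43, 0.48 and 0.54 on the log2 scale, and 10.2%, 10.98% and 16.4% of features lay past 1.5-fold. Over all features, which do not count as independent points, the correlation (Pearson) was 0.14 between replicates 1 and 2, 0.11 between 1 and 3, and 0.12 between 2 and 3. Between a wild-type and an NY1DD array it ran from -0.057 to 0.17. Ratios carry no level of expression, so the brain origin of the RNA could not be checked against marker levels. A probe was present for all 27 listed neuron markers, which describes the set of brain clones and not the RNA.

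No feature passed the test. Limma called 0 of 9685 features at an adjusted p of 0.05 (0.0%), while 198 features above 0 (2.04%) and 517 below 0 (5.34%) had an unadjusted p under 0.05, together 715 (7.38%). The smallest adjusted p was 0.147, and over 17 alternative settings of the fit the smallest lay between 0.0656 and 0.532. The genes below are therefore those with the smallest p on each side and a like sign on all 3 arrays, 12 a side, given as measured values and not as calls. Of these 24 genes, 23 rest on 1 probe.

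The 12 genes on the negative side had means from -1.50 to -0.77 and limma adjusted p-values from 0.147 to 0.189. Irs1, the adaptor that carries the signal of the insulin and IGF receptors to phosphoinositide 3-kinase, had log2 ratios of -1.41, -0.69 and -1.53 (mean -1.21, SE 0.19, limma adjusted p = 0.147). Per1, a repressor of the circadian clock and an immediate early gene, had -0.65, -1.003 and -1.21 (mean -0.95, SE 0.15, limma adjusted p = 0.147). Both genes lay past 1.5-fold on every array, Irs1 closest to 0 on replicate 2 and Per1 closest to 0 on replicate 1. S100a1, a calcium-binding protein, had -0.80, -0.58 and -1.20 (mean -0.86, SE 0.17, limma adjusted p = 0.189). Enah, which elongates actin filaments at growth cones and other cell edges, had -1.21, -0.69 and -1.02 (mean -0.97, SE 0.15, limma adjusted p = 0.147). Crb3, a protein of apical cell polarity, had -1.71, -0.91 and -1.89 (mean -1.50, SE 0.27, limma adjusted p = 0.170), the lowest mean of the 12. Its replicate 2 value was the nearest to 0, as it was for 11 of the 12 genes, and 8 of the 12 were past 1.5-fold on every array.

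The other 7 negative genes had varied roles. Micos10, a core protein of the mitochondrial cristae junctions, had -1.21, -0.81 and -1.11 (mean -1.04, SE 0.16, limma adjusted p = 0.147). Selenon, a selenoprotein of the endoplasmic reticulum, had -1.11, -0.77 and -1.18 (mean -1.02, SE 0.15, limma adjusted p = 0.147). Flad1, which makes the cofactor FAD, had -0.92, -0.58 and -0.92 (mean -0.81, SE 0.14, limma adjusted p = 0.170). These genes kept to a narrow range between arrays, with SDs of 0.20, 0.22 and 0.20. Paxx, a factor of DNA end joining, had -1.18, -0.73 and -1.55 (mean -1.15, SE 0.19, limma adjusted p = 0.158). Phospho2, a phosphatase, had -1.11, -0.55 and -1.69 (mean -1.12, SE 0.22, limma adjusted p = 0.189). Replicate 3 was the lowest array for both. Fhl4, a LIM domain protein, had -1.38, -0.81 and -1.25 (mean -1.15, SE 0.16, limma adjusted p = 0.147), and Rrnad1 had -0.93, -0.55 and -0.85 (mean -0.77, SE 0.13, limma adjusted p = 0.170).

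On the positive side the 12 means ran from 0.49 to 1.72, with limma adjusted p-values from 0.147 to 0.327. Snap25, the membrane protein that drives fusion of synaptic vesicles in neurons, had 0.78, 0.29 and 0.76 (mean 0.61, SE 0.15, limma adjusted p = 0.241) as the average of 3 probes. Gpr27, an orphan G protein-coupled receptor of the brain, had 1.16, 0.58 and 1.23 (mean 0.99, SE 0.27, limma adjusted p = 0.327). Both had their smallest value on replicate 2. Map10, which binds microtubules, had 0.72, 1.00 and 1.12 (mean 0.95, SE 0.13, limma adjusted p = 0.147), and Mical3, an enzyme that oxidises actin, had 0.73, 1.59 and 2.84 (mean 1.72, SE 0.45, limma adjusted p = 0.275). Hyou1, a chaperone of the endoplasmic reticulum, had 0.73, 2.71 and 0.76 (mean 1.40, SE 0.39, limma adjusted p = 0.323). Mical3 was highest on replicate 3, and Hyou1 on replicate 2, far above its other arrays; without replicate 2 its mean was 0.75.

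The other 7 positive genes had varied roles too. Fbxo6, the substrate-binding part of a ubiquitin ligase for glycoproteins, had 0.45, 0.53 and 0.47 (mean 0.49, SE 0.11, limma adjusted p = 0.220), and its SD of 0.040 was the smallest of the 24 genes. Cul4a, the scaffold of another ubiquitin ligase, had 0.31, 0.68 and 1.40 (mean 0.80, SE 0.22, limma adjusted p = 0.314). Tysnd1, a protease of the peroxisome, had 0.73, 0.67 and 1.60 (mean 1.00, SE 0.22, limma adjusted p = 0.242). In Cul4a and Tysnd1 replicate 3 stood above the other arrays. Nacc1, a transcriptional regulator, had 0.71, 1.00 and 2.10 (mean 1.27, SE 0.28, limma adjusted p = 0.242). Cdhr3, a cadherin-related protein, had 0.73, 1.53 and 0.77 (mean 1.01, SE 0.22, limma adjusted p = 0.197). Lrp12, a receptor of the low-density lipoprotein receptor family, had 0.80, 0.42 and 0.99 (mean 0.74, SE 0.19, limma adjusted p = 0.260), and Sult2b1, a sterol sulfotransferase, had 0.34, 0.90 and 1.82 (mean 1.02, SE 0.27, limma adjusted p = 0.280). Replicate 3 had the largest value in 8 of the 12 positive genes.

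**Figure D1:**
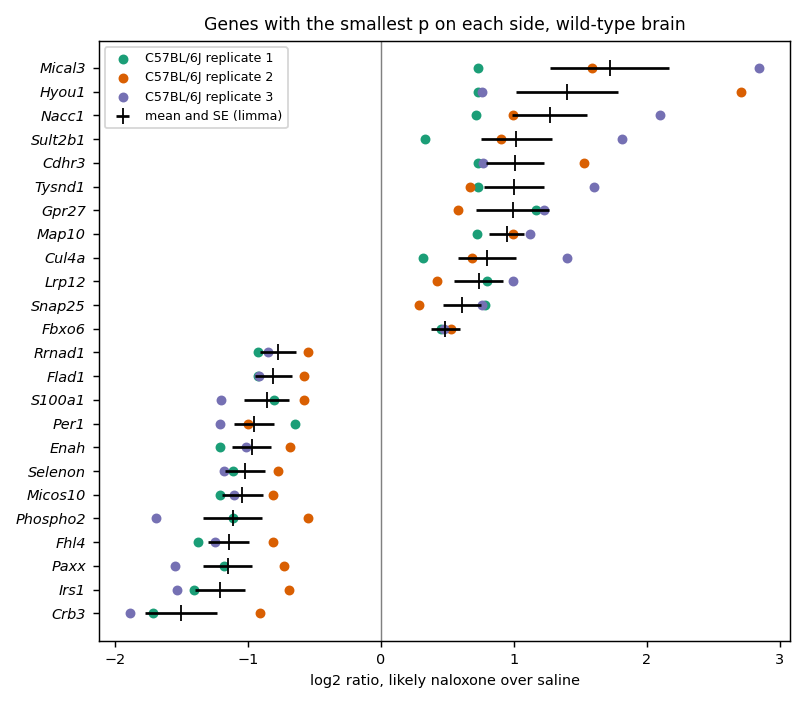
Log2 ratios (x axis, likely naloxone over saline) of the 24 genes with the smallest p (y axis) on the 3 C57BL/6J arrays; points are arrays, and the black mark and bar are the mean and limma SE. Among the 12 negative genes the replicate 2 point lies nearest to 0 in 11, and Mical3 and Hyou1 have the widest spread of the positive genes.

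Per1 and Irs1 are among those of the 24 genes whose promoter windows hold the core of the cyclic AMP response element, which are counted below for both sides. Their windows are shown as examples, and a link between the element and the measured values was not tested. The windows are the 250 bases before the transcription start in RefSeq (GRCm38.p6), written 5′ to 3′ on the gene's strand. Capitals mark TGACG, the core of the element, and CACGTG, the E-box bound by clock proteins, searched on both strands.
Per1, chr11:69098699-69098948, + strand: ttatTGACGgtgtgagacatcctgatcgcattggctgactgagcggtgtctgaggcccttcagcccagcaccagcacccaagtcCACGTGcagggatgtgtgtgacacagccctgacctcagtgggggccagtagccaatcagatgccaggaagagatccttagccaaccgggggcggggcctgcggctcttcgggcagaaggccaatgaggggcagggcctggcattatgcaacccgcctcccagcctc
Per1, chr11:69099902-69100151, + strand: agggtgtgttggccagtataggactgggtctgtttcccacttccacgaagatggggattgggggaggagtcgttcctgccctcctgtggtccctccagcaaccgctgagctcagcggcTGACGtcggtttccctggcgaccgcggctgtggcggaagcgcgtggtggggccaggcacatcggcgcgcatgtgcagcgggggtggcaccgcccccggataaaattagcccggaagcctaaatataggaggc
Irs1, chr1:82291440-82291689, - strand: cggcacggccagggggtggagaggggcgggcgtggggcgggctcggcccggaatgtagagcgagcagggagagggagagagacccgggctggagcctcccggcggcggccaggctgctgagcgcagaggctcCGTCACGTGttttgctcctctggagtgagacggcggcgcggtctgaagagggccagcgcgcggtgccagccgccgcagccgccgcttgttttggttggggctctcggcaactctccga
The first Per1 window has TGACG starting at -246 and CACGTG at -166 from the start site, and the other Per1 window has TGACG at -132. In Irs1 the core lies on the opposite strand at -118 and overlaps the E-box at -115. The core occurred in 17.8% and the E-box in 6.02% of 32851 mouse promoter windows of 250 bases. All 12 negative genes had a window, 6 of them with the core and 3 with the E-box, while 7 of the 12 positive genes had a window, 4 with the core and 2 with the E-box. A gene can have more than 1 window, so these counts over genes and the shares over windows are not on the same footing. The full element TGACGTCA, found in 1.55% of windows, occurred among the 24 genes in Phospho2 alone. These matches describe letters and not binding.

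How far a value depends on the clone was read from genes with several probes. Across 1030 genes with 2 probes, whose values share array and dye, the wild-type means of the probes had a Pearson correlation of -0.021 and a Spearman correlation of 0.0044, and 51.3% had the same sign. Within an array the Spearman correlation was 0.038, 0.044 and 0.12. The 3 Snap25 probes gave 0.56, 0.81 and 0.99 on replicate 1, 0.22, 0.28 and 0.36 on replicate 2, and 0.72, 0.73 and 0.84 on replicate 3. Each of these clones was positive on every array and lowest on replicate 2. Calm2, which encodes the calcium sensor calmodulin, had 5 probes. They spanned 0.050 to 0.47 on replicate 1, -0.037 to 0.059 on replicate 2 and 0.51 to 0.91 on replicate 3, so replicate 3 lay above the other arrays with no overlap, and the gene mean was 0.32 (SE 0.15, limma adjusted p = 0.744).

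Of the 53 genes with at least 4 probes, 5 had every probe mean above 0 and 0 had every probe mean below 0. The 5, named after their values were seen, were Calm2, Gabbr1, Eif4g2, Gpm6b and Tm9sf3. Gabbr1, a subunit of the GABA-B receptor, had gene values of 0.21, 0.13 and 0.20 (mean 0.18, SE 0.12, limma adjusted p = 0.881). Eif4g2, a translation initiation factor, had 0.044, -0.013 and 0.85, so its mean came from replicate 3. The median of the probe means of these 53 genes lay between -0.23 and 0.29, and in 0 of them did it pass 1.5-fold.

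Other genes showed that a like sign of probe means is no sign of like arrays. By the rule for genes with several probes, 8 genes were taken whose probe means had 1 sign and whose gene value had the same sign on all 3 arrays. Ntn1, an axon guidance cue, had -0.59, -0.79 and -0.63 (mean -0.67, SE 0.14, limma adjusted p = 0.197), yet its 2 probes read -1.78, -1.44 and 1.29, and 0.60, -0.14 and -2.55. The clones disagreed on replicates 1 and 3, and the average hid this. Galnt2, a glycosyltransferase of the Golgi, had a mean of -0.74 (SE 0.21, limma adjusted p = 0.335) that came mostly from 1 of its 3 probes, with -1.62 and -3.36 on replicates 1 and 2 and no usable value on replicate 3. Dgkz, a diacylglycerol kinase, had a mean of 0.78 (SE 0.23, limma adjusted p = 0.374), with probe means of 1.63 and 0.26, and its mean was -0.46 when values at the lower limit were kept. Ubxn1 and Nin, a centrosome protein, had means of -0.51 (SE 0.12, limma adjusted p = 0.241) and -0.69 (SE 0.17, limma adjusted p = 0.246), and in each of these all probe values were negative. Samd8, a sphingolipid-synthesising enzyme, had 0.48 (SE 0.14, limma adjusted p = 0.374) with all probe values positive, and Lemd3, a protein of the inner nuclear membrane, had -0.74 (SE 0.22, limma adjusted p = 0.376).

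**Figure D2:**
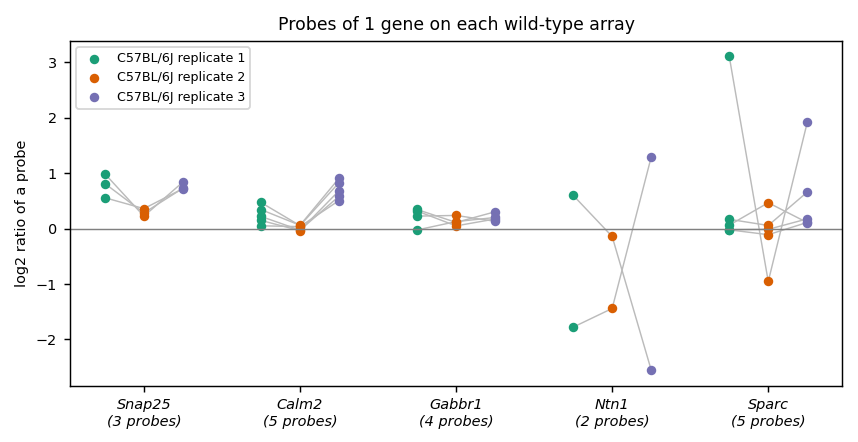
Log2 ratio (y axis) of each probe of 5 genes on the 3 C57BL/6J arrays (colours); grey lines join the values of 1 probe. The probes of Snap25 and Calm2 lie close together on every array, those of Ntn1 cross 0 in opposite directions, and 1 of the 5 Sparc probes stands at 3.10 and 1.92 on replicates 1 and 3.

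A count by size was lopsided. Every wild-type array lay past 1.5-fold, with a like sign, for 12 features above 0 (0.126% of 9489 with 3 values) and 73 below 0 (0.769%). For comparison, 1242 features (13.1%) were above 0 and 1540 (16.2%) below 0 on all 3 arrays. Asked of 2 arrays in place of 3, the size counts were 46 to 78 above and 129 to 246 below. Of the 73, only 15 were named genes, and 58 (79.5%) had no single symbol, against 36.5% of all features. The 15 genes were Arf5, Crb3, D630045J12Rik, Eif2b2, Enah, Fhl4, Irs1, Micos10, Ntn1, Padi2, Paxx, Per1, Prss36, Selenon and Ube2d-ps. Arf5, a small GTPase of the Golgi, had -0.69, -0.72 and -0.97 (mean -0.79, SE 0.18, limma adjusted p = 0.212), and Eif2b2, a subunit of the exchange factor that restarts translation initiation, had -0.70, -0.70 and -1.17 (mean -0.86, SE 0.20, limma adjusted p = 0.235). Padi2, an enzyme that converts arginine to citrulline and is expressed in myelin-forming cells, had -0.93, -0.64 and -0.71 (mean -0.76, SE 0.22, limma adjusted p = 0.368). Just inside the threshold lay Ntn1 with -0.59 on replicate 1 and Padi2 with -0.64 on replicate 2, and just outside lay Flad1 with -0.58 and S100a1 with -0.58 on replicate 2. On the positive side the 8 genes were Cdhr3, Hyou1, Lpin2, Map10, Mical3, Nacc1, Rabl2 and Tysnd1, and Lpin2, a phosphatidate phosphatase, had 0.93, 0.86 and 0.64 (mean 0.81, SE 0.24, limma adjusted p = 0.365).

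The 73 negative features shared an order of arrays. Their medians were -1.14, -0.76 and -1.42, and in 62 of them replicate 2 had the smallest size. The order replicate 2, 1, 3 by size held in 50 of the 73 (68.5%), against 22.6% of all features. On the NY1DD arrays, which were not used to choose them, their medians were -0.72, -0.14 and -0.40. The NY1DD mean was negative in 70 of the 73, against 4814 of all 9489 features. On all 3 NY1DD arrays 51 of the 73 were negative, against 1403 of all 9489. The labelling orientation is the same in both strains, and its part in this pattern cannot be told apart from naloxone. Probe position moved with the set too: plate columns 1, 7 and 8 held 17, 11 and 11 of its 74 probes (23.0%, 14.9% and 14.9%, against 8.06%, 8.26% and 8.25% of all probes), after well medians had been subtracted. The set drew on 46 of 120 plates, with at most 5 probes from 1 plate. The part of position in the result was not tested. Irs1, Per1, Enah, Selenon, Micos10, Paxx, Fhl4 and Crb3 belong to this set, and 7 of these 8, all but Paxx, lie in columns 1, 7 or 8, as do 39 of the 74 probes (52.7%) and 24.6% of all probes.

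**Figure D3:**
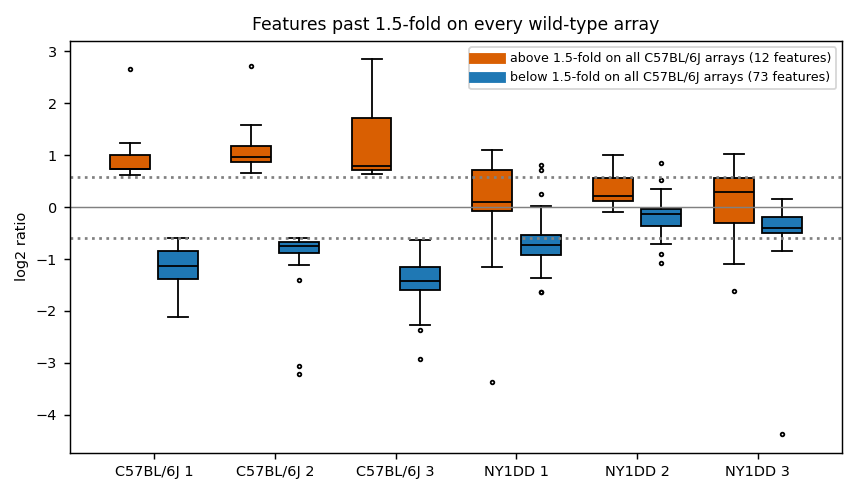
Box plots of the log2 ratio (y axis) on each of the 6 arrays (x axis) for the 12 features above and the 73 below 1.5-fold on every C57BL/6J array; boxes are quartiles, lines medians, points beyond the whiskers outliers, and dotted lines mark 1.5-fold. The C57BL/6J boxes lie past the dotted lines by choice; the NY1DD medians of the 73 features are -0.72, -0.14 and -0.40.

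Whether the wild-type values differed from those of NY1DD mice was tested in the same model. Limma called 0 of 9685 features for the difference (0.0%), with 502 (5.18%) at an unadjusted p under 0.05. Among the 12 negative genes 11 also had a negative NY1DD mean, as did 4814 of the 9489 features with 3 wild-type values. All 12 were smaller in size in NY1DD, with a median of -0.34 against -1.03 in wild type. Genes chosen for extreme values in 1 group are smaller in another by that choice. Enah had -0.31, 0.00999 and 0.036 in NY1DD, close to 0 on replicates 2 and 3, and Irs1 had -0.64, -0.53 and -0.25. Of the 12 positive genes 7 had a positive NY1DD mean, as did 4675 of the 9489 features, and the median of the 12 was 0.037 against 1.00. Mical3 had -1.16, 0.14 and -1.62 in NY1DD, a difference of -2.61 (SE 0.63, limma adjusted p = 0.921). Snap25 had 0.058, -0.080 and 0.21, a difference of -0.55 (SE 0.21, limma adjusted p = 0.921). All arrays of the strains lay apart in 10 of the 12 genes on either side, against 10.2% of all features, a share that the choice by wild-type values raises.

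**Figure D4:**
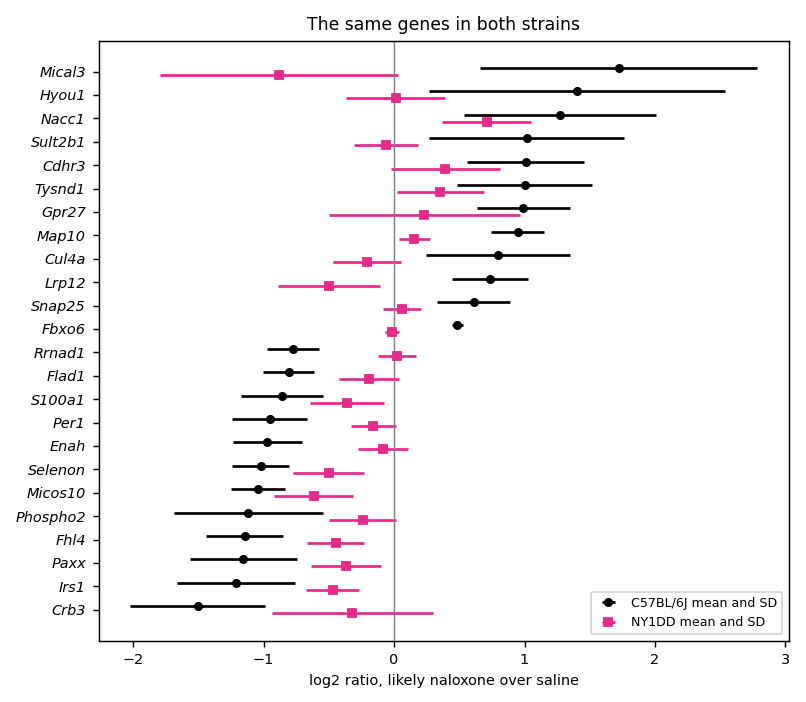
Mean log2 ratio (x axis) and SD between arrays of the 24 genes (y axis) in C57BL/6J (black circles) and NY1DD (pink squares), with n = 3 arrays except for 2 NY1DD arrays of Nacc1 and Tysnd1. The NY1DD means lie nearer to 0 for all 24 genes, and those of Mical3 and Lrp12 lie well below it, at -0.88 and -0.50.

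Of the 6 opioid receptor genes listed, only Ogfr, the opioid growth factor receptor, had a feature, with -0.0042, -0.31 and -0.12 (mean -0.15, SE 0.13, limma adjusted p = 0.934). It binds an enkephalin but is not related in sequence to the classical receptors. Oprm1, Oprd1, Oprk1, Oprl1, Pnoc, Fos, Arc and Junb were not analysed here. Among the peptide precursors Penk had -0.42, -0.070 and -0.035 (mean -0.18, SE 0.16, limma adjusted p = 0.943) over 2 probes, all 3 gene values below 0, although each probe lay above 0 on 1 array (0.17 and 0.014). In NY1DD it had 0.36, 0.21 and 0.80, all above 0, an opposition on all arrays that 221 of 9175 features showed (2.41%), and the difference was 0.63 (SE 0.22, limma adjusted p = 0.921). Pdyn had 0.12, 0.22 and -0.43 (mean -0.030, SE 0.21, limma adjusted p = 0.993). Pomc had -1.34, 1.45 and 0.65 (mean 0.25, SE 0.63, limma adjusted p = 0.992), with the widest range of the precursors. Only 2 pituitary markers were measured, Pomc and Gh, the growth hormone gene, which had 0.12, 0.076 and -1.01. Their lowest values fell on different arrays. The 6 measured genes of opioid peptide processing were 3 positive and 3 negative (median 0.0025). Cpe, the carboxypeptidase that trims neuropeptide precursors, had 0.094, 0.070 and 0.32 (mean 0.16, SE 0.14, limma adjusted p = 0.933) over 3 probes. The Cpe probes had mixed signs on replicates 1 and 2, spanning -0.14 to 0.54 and -0.75 to 0.75.

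The signalling partners of the receptors had list medians near 0. Of 11 regulators of opioid receptors 5 were positive (median -0.00086), and 1 had an unadjusted p under 0.05: Rgs7, which speeds the shut-off of inhibitory G proteins and is enriched in neurons, with -0.49, -0.80 and -0.23 (mean -0.51, SE 0.15, limma adjusted p = 0.386). Its 2 probes disagreed, with -1.21 and 0.22 on replicate 1 and 0.032 and -0.50 on replicate 3, and replicate 2 rests on 1 probe. Arrb1, a beta-arrestin that desensitises the receptors, had 0.14, 0.15 and 0.14 (mean 0.15, SE 0.12, limma adjusted p = 0.933), 3 nearly equal values. Of 20 G protein subunits and modulators 15 were negative and 0 had an unadjusted p under 0.05 (median -0.047, and 0.0040 without replicate 3), among them Gpsm1 with a mean of -0.25 (SE 0.14, limma adjusted p = 0.832) and Gnb4 with -0.18 (SE 0.15, limma adjusted p = 0.931). The 2 Gnb4 probes had opposite signs on every array, with 0.060, 0.12 and -0.30, and -0.43, -0.59 and 0.075. The cyclic AMP pathway was even, 11 of 22 positive (median -0.0012). Its anchoring protein Akap1 had -0.43, -0.18 and -0.57 (mean -0.39, SE 0.15, limma adjusted p = 0.598), and the phosphodiesterase Pde4b had 0.52, 0.079 and 0.45 (mean 0.35, SE 0.15, limma adjusted p = 0.699). Creb1, which encodes the factor that binds the cyclic AMP response element, had -0.039, 0.11 and 1.96, so that its mean of 0.68 (SE 0.38, limma adjusted p = 0.823) came from replicate 3.

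Immediate early genes split evenly, 6 of 12 positive (median 0.027), with Per1 and Jund below 0 at an unadjusted p under 0.05. Jund, a subunit of the AP-1 factor, had -0.12, -0.61 and -0.29 (mean -0.34, SE 0.13, limma adjusted p = 0.619) over 2 probes. Its probes disagreed on replicate 1, with 0.40 and -0.65, and its replicate 2 value rests on 1 probe. Egr1, a zinc finger factor induced by neuronal activity, had -0.41, -0.20 and 0.15 (mean -0.15, SE 0.19, limma adjusted p = 0.968) over 2 probes, its arrays falling on both sides of 0. Srf, the factor that drives several immediate early genes, had 0.38, 0.33 and 0.23 (mean 0.31, SE 0.18, limma adjusted p = 0.830). Ier5 had -0.32, 0.096 and -1.05 (mean -0.42, SE 0.32, limma adjusted p = 0.906). Of the 10 measured circadian clock genes, Per1 among them, 7 were positive, with Rora at 0.092, 0.20 and 0.51 (mean 0.27, SE 0.13, limma adjusted p = 0.772) and Ciart at 0.23, 1.34 and 0.092 (mean 0.56, SE 0.34, limma adjusted p = 0.857). In the MAP kinase and calcium kinase pathway 17 of 28 were positive (median 0.045). Its phosphatase Ppp3cb, the catalytic subunit of calcineurin, had 0.18, 0.18 and 0.22 (mean 0.19, SE 0.11, limma adjusted p = 0.830) over 3 probes. These probes had mixed signs on every array, spanning -0.068 to 0.51, -0.098 to 0.55 and -0.23 to 0.63, so the like gene values are averages of unlike clones. The insulin and phosphoinositide 3-kinase list, Irs1 included, had 11 of 20 positive (median 0.044), with Pik3r1, the regulatory subunit that binds Irs1, at 0.53, 0.15 and 0.31 (mean 0.33, SE 0.14, limma adjusted p = 0.699). The 2 Pik3r1 probes had opposite signs on every array, with -0.076, -0.20 and 0.66, and 1.14, 0.50 and -0.040.

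Genes of the synaptic vesicle and transmitter release had the highest share above 0 of the lists with over 10 measured genes: 33 of 43 (median 0.12), against 4778 of all 9685 features (median -0.0026). Of these 3 had an unadjusted p under 0.05, and 0 were called. They were Snap25, Synj1, a lipid phosphatase of vesicle recycling, with 0.63, 0.44 and 0.23 (mean 0.44, SE 0.13, limma adjusted p = 0.394), and Vamp2, the vesicle partner of Snap25, with 0.40, 0.26 and 0.40 (mean 0.35, SE 0.13, limma adjusted p = 0.597). All 3 genes were positive on every array, although the probe means of Synj1 were unequal, 0.069 and 0.80. The list's median was 0.17, -0.0019 and 0.12, so replicate 2 did not share it. Its median was 0.22 without that array and 0.052 without replicate 3. Neuron markers, which share Snap25 and Syt1 with this list, were positive for 18 of 27 (median 0.066), with medians of 0.035, -0.0018 and 0.031, and their part in the synaptic values was not tested.

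Transmitter systems were mixed. Gad1, which makes GABA, had -0.57, -1.29 and -1.13 (mean -0.996, SE 0.24, limma adjusted p = 0.243) from 1 probe, below 0 on every array, while the GABA list as a whole was 6 of 12 positive (median -0.0012). Gabarap, which binds GABA-A receptors, had 0.097, 0.30 and 1.26, with replicate 3 far above the rest. Of its 2 probes, 1 read 2.55 on replicate 3 and the other -0.034. Of 24 glutamate genes 13 were positive (median 0.031), and Grik5, a kainate receptor subunit, had -0.39, -0.13 and -0.57 (mean -0.36, SE 0.14, limma adjusted p = 0.613). Monoamine genes were negative for 5 of 7 (median -0.063), with medians of 0.017, -0.12 and -0.35, and without replicate 3 the median of the means was 0.082. Voltage-gated channels were 12 of 25 positive (median -0.00098) and neuropeptides 6 of 12 (median 0.019).

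Markers of cell types gave small shifts. Oligodendrocyte and myelin markers were positive for 18 of 26, with like medians on the 3 arrays, 0.084, 0.087 and 0.086. Ermn and Mal, both myelin proteins, had means of 0.33 (SE 0.16, limma adjusted p = 0.732) and 0.33 (SE 0.17, limma adjusted p = 0.799). Other members differed: Olig2 had probe means of -0.14 and -0.20, and Gjc3 had 0.39, -0.23 and 1.02. Of the 23 endothelial and mural markers 17 were positive (median 0.076), with medians of 0.042 without replicate 3 and 0.18 without replicate 1. The smallest p was that of Pltp, a phospholipid transfer protein of brain vessels, with 0.36, 1.02 and 0.29 (mean 0.56, SE 0.17, limma adjusted p = 0.392), whose 2 probes had unequal means of 0.014 and 1.10. Sparc, an extracellular matrix protein, had 0.66, -0.11 and 0.59, but 1 of its 5 probes set these values. Astrocyte markers were positive for 13 of 21 (median 0.060) and microglia and macrophage markers for 5 of 9 (median 0.0023), where C1qa, a complement subunit, had -0.58, -0.21 and -0.61 (mean -0.47, SE 0.16, limma adjusted p = 0.500). Choroid plexus and ependyma markers had the lowest list median, -0.15, with 4 of 10 positive. On single arrays, however, their medians were -0.089, 0.00019 and 0.062, and without replicate 2 the median of the means was -0.038. Dynlrb2, a dynein light chain of motile cilia, had -0.90, -0.45 and -1.14 (mean -0.83, SE 0.17, limma adjusted p = 0.197), whereas Folr1, the folate receptor of the choroid plexus, had 0.061, 0.31 and 1.10 (mean 0.49, SE 0.23, limma adjusted p = 0.736). Only 3 blood and red cell markers were measured, and Hba-a2, an alpha globin gene, had -0.85, 0.88 and -0.55, on both sides of 0.

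Housekeeping groups were spread around 0 with a few low members. DNA repair genes were negative for 14 of 22 (median -0.12), with medians below 0 on all 3 arrays, -0.061, -0.22 and -0.11; without replicate 3 the median of the means was -0.041. Rpa1, which coats single-stranded DNA, had -0.42, -0.60 and -0.81 (mean -0.61, SE 0.13, limma adjusted p = 0.197), and Fance, of the Fanconi anaemia pathway, had 1.04 and 0.94 on replicates 1 and 3 and no usable value on replicate 2. Among Rab proteins and regulators 22 of 37 were positive (median 0.085, and 0.028 without replicate 3), yet Rab28 had -0.88, -0.51 and -1.02 (mean -0.80, SE 0.16, limma adjusted p = 0.197) and Rabgap1l had -1.34 and -2.83 on replicates 1 and 2, with no usable value on replicate 3. Actin regulators were positive for 26 of 39 (median 0.093), Enah and Mical3 being their extremes by p on either side. Oxidative phosphorylation was positive for 27 of 61 (median -0.034), where Ndufb7, a subunit of complex I, had -0.67, -0.32 and -0.69 (mean -0.56, SE 0.13, limma adjusted p = 0.242) while another, Ndufa9, had 0.35, 0.29 and 0.19 (mean 0.28, SE 0.11, limma adjusted p = 0.628). Cytosolic ribosomal proteins were positive for 19 of 40 (median -0.021). Of these Rps19, Rpl19 and Rpl21 lay below 0 with an unadjusted p under 0.05, as did 517 of all 9685 features (5.34%). Of 32 histone and chromatin genes 21 were negative (median -0.042), with H2ax, a histone marking DNA breaks once phosphorylated, at -0.67, -0.43 and -0.58 (mean -0.56, SE 0.20, limma adjusted p = 0.541). Crebbp, the acetyltransferase partner of CREB, had -1.32, -0.075 and -1.09 (mean -0.83, SE 0.26, limma adjusted p = 0.439).

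**Figure D5:**
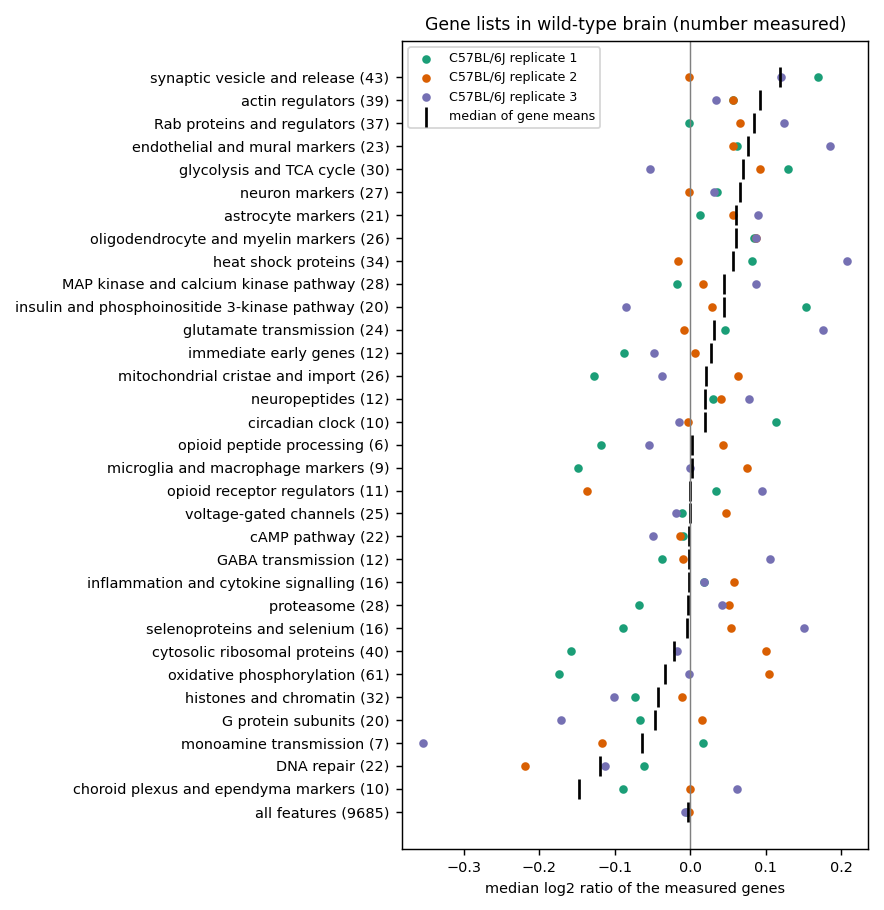
Median log2 ratio (x axis) of the measured genes of each list with at least 5 of them (y axis, number measured in brackets); coloured points are the medians on the 3 C57BL/6J arrays and black marks the medians of the gene means. Synaptic vesicle and release has the highest black mark, 0.12, and choroid plexus and ependyma markers the lowest, -0.15, although its points run from -0.089 to 0.062, and the points of most lists fall on both sides of 0.

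The remaining lists had no member called and medians near 0. Selenoproteins were 8 of 16 positive despite Selenon. Mitochondrial cristae and import genes were 14 of 26 positive despite Micos10, with Vdac2, the outer membrane channel, at 0.51, 0.26 and 0.37 (mean 0.38, SE 0.13, limma adjusted p = 0.491). Heat shock proteins were positive for 21 of 34 (median 0.057) and proteasome genes for 12 of 28 (median -0.0036). Glycolysis and TCA cycle genes were positive for 20 of 30 (median 0.069), with the lowest p at Dlst, of the oxoglutarate dehydrogenase complex, with -0.30, -0.58 and -1.10 (mean -0.66, SE 0.22, limma adjusted p = 0.498). Inflammation and cytokine genes were 8 of 16 positive, and Rela, the NF-kappaB subunit, had 0.092, 0.25 and -4.08, so its mean rests on replicate 3 alone.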

How the data were processed

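Brain total RNA of naloxone- and saline-treated mice was hybridised to 2-colour cDNA arrays. The authors deposited 1 natural log (ln) channel ratio per probe. The base was read from the values, whose lowest is the ln of 0.01. How they were normalised and corrected for background is not given in these sources, and single-channel intensities were not used, so signal over background is unknown. The table held 11532 spots. Control or unplaced spots (30) were left out. The platform annotation gave a single gene symbol for 7906 of 11502 probes, several for 297 and none for 3299, and 7894 matched a RefSeq gene number (GRCm38.p6).

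Ratios were converted to log2, values at 0.01 (168 on the wild-type arrays) were set missing, array medians were subtracted, and then the median of each of 96 wells (row letter and column of the probe name) was subtracted. Probes with values on at least 2 arrays of each strain were kept, and kept probes of 1 symbol were averaged. A limma model (3.58.1, R 4.3.3) with 1 mean for each strain was fitted to the 6 arrays (4 residual degrees of freedom, prior 2.97 degrees of freedom), two-sided, with Benjamini-Hochberg adjustment over 9685 features. SE comes from that fit, and all means given are over 3 arrays unless stated. The fit was tested on simulated data.

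Genes were named by rule: up to 12 per side by p with 1 sign on all 3 arrays, up to 8 with several probes of 1 sign, up to 4 per list by p, 13 listed opioid and immediate early genes, and every symbol past 1.5-fold on all 3 arrays. Some lists in the text show fewer than 4. Members and lists were chosen with earlier results of these data known. The alternatives were no well correction, limit values kept, arrays as deposited or scaled, probes not averaged, all 6 values required, wild-type arrays alone, a replicate block, robust shrinkage and each array left out. After the data were seen, plate medians and the average of replicates 1 and 2 were added.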

Additional observations from a re-analysis of the deposited data

Results flagged for a closer look

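Of 165 named genes, 8 had values on 1 side of 0 on all wild-type arrays and on the other side on all NY1DD arrays, as did 221 of 9175 features with 6 values (2.41%). Some of the 165 were named for 1 sign on all wild-type arrays, a choice that raises such a count. The difference (NY1DD minus wild type) was tested by limma and did not pass for any of them (adjusted p 0.921 for each). Lrp12 had 0.80, 0.42 and 0.99 in wild type and -0.63, -0.057 and -0.80 in NY1DD, a difference of -1.23 (SE 0.26). Penk had -0.42, -0.070 and -0.035 against 0.36, 0.21 and 0.80, a difference of 0.63 (SE 0.22). Rgs7 had -0.49, -0.80 and -0.23 against 0.49, 0.30 and 0.69, a difference of 1.01 (SE 0.21), and its probes disagreed in sign on wild-type replicates 1 and 3. In each of the 8 genes the nearest arrays of the strains lay less than 1.5-fold apart. Map2k1, a kinase that activates ERK, had -0.099, -0.50 and -0.23 against 0.61, 0.062 and 0.10, a difference of 0.53 (SE 0.22). Lgmn, a lysosomal protease, had -0.037, -0.11 and -0.069 against 0.41, 0.14 and 0.075, a difference of 0.28 (SE 0.17). Its wild-type mean was above 0 without well correction (0.072), as deposited (0.099) and with plate medians (0.0029). Pltp had 0.36, 1.02 and 0.29 against -0.25, -0.028 and -0.15, a difference of -0.70 (SE 0.24). Its 2 probes went opposite ways, 1 with means of 1.10 in wild type and -0.92 in NY1DD and the other with 0.014 and 0.63. Lgmn had the smallest difference of the 8. Ifngr2, a subunit of the interferon gamma receptor, had 0.30, 0.17 and 0.54 against -0.25, -0.64 and -0.057, a difference of -0.65 (SE 0.22), and each of its 2 probes lay below 0 on 1 wild-type array (-0.040 and -0.016). Ercc2, a helicase of nucleotide excision repair, had -0.28, -1.04 and -0.32 against 0.94, 0.12 and 0.22, a difference of 0.98 (SE 0.31).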

How the results depend on the processing

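No alternative called a feature, for the wild-type mean or for the strain difference. In the settings that kept all arrays, the size counts stayed within 1.5 times of 12 above and 73 below. Leaving out each array in turn gave 9 to 78 above and 70 to 246 below; without a wild-type array the counts were 46 to 78 and 129 to 246, since fewer arrays had to pass. Deviations from the strain mean had correlations of -0.0757, 0.0477 and 0.0287 between arrays of the strains with the same replicate number. Between arrays with different numbers they ran from -0.1175 to 0.0872. Whether arrays with the same number share a batch was not tested. With the replicate block, 190 features above and 504 below had an unadjusted p under 0.05, and 0 were called. The title number as a random block could not be estimated, since only 1 pair of arrays shares it. Of 2725 gene values under 17 alternatives, 25 turned sign. A gene with 1 probe and 1 sign on all wild-type arrays cannot turn when an array is left out. A gene with several probes could, since a probe with too few values left was dropped from its average. The cause of the turns was not otherwise tested. Without well correction Maoa was -0.019 and Lgmn 0.072. With limit values kept Dgkz was -0.46, by the construction of that setting. As deposited, Slc6a4 was 0.0090 and Lgmn 0.099. With scaled arrays Pdyn was 0.0058. With plate medians Pdyn was 0.030, Slc6a4 0.0058 and Lgmn 0.0029. Leaving out each of the 6 arrays in turn, the wild-type mean ranged for Ank1 -0.13 to 1.84, Gh -0.47 to 0.10, Hba-a2 -0.70 to 0.16, Pam -0.39 to 0.043, Pdyn -0.16 to 0.17, Pomc -0.34 to 1.05, Rela -1.995 to 0.17, Rgs5 -0.0061 to 0.39, Scg3 -0.12 to 0.80, Shank3 -0.55 to 0.13 and Slc6a4 -0.18 to 0.082. The upper end for Shank3 and the lower end for Scg3 came from leaving out NY1DD arrays, which left each gene with a single probe. Of 360 list medians, 35 moved by more than the SD of the list's medians over the wild-type arrays. The number of arrays, 3, limits the precision.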
